A study of Mus musculus with 2 samples.

Results

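The 34 genes described here, of 32285 mouse genes counted, are 15 genes of glycolysis and 19 targets of the hypoxia-inducible factors (HIF). They were taken by symbol and not by a cut-off on their measured values, but earlier results of these data were known. The study sequenced single cells of 2 mouse prostate libraries, 1 of tumour and 1 of normal tissue beside a tumour, which its title also calls healthy. Collagenase (1 mg/ml, 45 min) and a 40 µm strainer gave single cells, which were sorted into CD45+ (leukocyte) and CD45- fractions and loaded together, so the sort set the mix of cells. The sources used here give no strain, genotype, age, tumour model or number of animals. Each tissue is 1 library, so no difference between tissues could be tested. Of each pair of values, the first is from the normal adjacent library and the second from the tumour.

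Glycolysis splits glucose into pyruvate, and cells that reduce the pyruvate to lactate can make ATP without oxygen. When oxygen is low, prolyl hydroxylases of the Egln family no longer mark HIF-1α for destruction by the von Hippel-Lindau protein. HIF then enters the nucleus and binds the core sequence ACGTG or GCGTG near genes for glucose uptake, glycolytic enzymes, angiogenesis and turnover of mitochondria. Neutrophils are known for relying on glycolysis, and luminal cells of the prostate for an unusual citrate-secreting metabolism.

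The ACGTG form of this core was looked for in the 250 bases before the RefSeq start sites (build GRCm38.p6), on both strands. Of the 34 genes, 31 matched such a start site. Slc2a3, Bnip3l and Ndrg1 were not matched. Of the glycolysis genes, 7 of 14 (50%) held ACGTG, and of the HIF targets 12 of 17 (70.6%), against 18.5% of the 27025 genes in the table. The lists were chosen for known roles in these pathways, and the 27025 genes were not limited to those measured here, so enrichment was not tested. A match is a description of letters and not a binding site. The windows of 5 genes are printed, chosen among those that hold ACGTG, because these genes return below. Slc16a3 is a glycolysis gene found mainly in neutrophils. Pgk1 (by a small margin), Bnip3, Ddit4 and Egln3 took a smaller share of RNA in epithelial cells of the tumour library. The windows of Gapdh and Eno1, which took a smaller share of RNA there too, hold no ACGTG. They do hold GCGTG, the other form of the core, at 1 of 1 start sites of Gapdh and 3 of 3 of Eno1. Capitals mark ACGTG or its reverse complement CACGT. Each window ends at the RefSeq start, or before an annotated GENCODE exon that begins upstream of it.
Slc16a3, chr11:120948817-120949052, plus strand: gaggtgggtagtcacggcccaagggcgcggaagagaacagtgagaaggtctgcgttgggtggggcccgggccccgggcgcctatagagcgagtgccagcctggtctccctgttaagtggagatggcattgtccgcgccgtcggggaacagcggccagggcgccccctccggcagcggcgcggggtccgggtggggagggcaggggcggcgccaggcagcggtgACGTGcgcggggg
Pgk1, chrX:106186850-106187099, plus strand: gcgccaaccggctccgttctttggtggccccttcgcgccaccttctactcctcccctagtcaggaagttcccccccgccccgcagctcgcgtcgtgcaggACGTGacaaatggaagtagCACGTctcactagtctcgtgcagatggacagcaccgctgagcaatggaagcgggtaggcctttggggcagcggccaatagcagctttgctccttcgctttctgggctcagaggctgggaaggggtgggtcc
Bnip3, chr7:138909520-138909756, minus strand: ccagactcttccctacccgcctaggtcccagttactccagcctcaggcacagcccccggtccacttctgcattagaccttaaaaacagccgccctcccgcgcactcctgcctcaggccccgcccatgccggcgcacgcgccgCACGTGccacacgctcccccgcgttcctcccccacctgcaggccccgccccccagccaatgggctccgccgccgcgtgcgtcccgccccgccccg
Ddit4, chr10:59951835-59952020, minus strand: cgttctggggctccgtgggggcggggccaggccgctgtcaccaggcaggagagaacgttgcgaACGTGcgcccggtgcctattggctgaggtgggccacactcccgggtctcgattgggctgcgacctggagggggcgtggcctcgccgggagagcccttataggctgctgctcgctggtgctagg
Egln3, chr12:54203875-54204124, minus strand: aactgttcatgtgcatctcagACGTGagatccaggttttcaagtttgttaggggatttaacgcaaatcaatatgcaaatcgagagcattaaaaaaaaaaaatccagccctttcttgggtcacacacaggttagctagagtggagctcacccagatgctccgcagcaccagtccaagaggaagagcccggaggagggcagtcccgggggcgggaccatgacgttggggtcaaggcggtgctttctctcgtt
In the Pgk1 window the ACGTG cores begin 150 and 131 bases before the start, 1 on each strand. In Bnip3 they begin 108 and 107 bases before the start and overlap, so that 1 palindrome reads as a core on either strand. In Slc16a3 the marked core lies 27 bases before the start, in Ddit4 187 and in Egln3 229.

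After barcodes with under 200 genes or over 20% mitochondrial counts had been removed, 6209 and 7768 cells remained, and the 34 genes held 0.432% and 0.427% of their UMIs (unique molecular identifiers, which count RNA molecules). Cells were assigned to neutrophils, macrophages, T cells, epithelium or fibroblasts by marker UMIs. A cell that met more than 1 set of markers was left out (1228 and 1681 cells), which was mostly a joint macrophage and T cell signal (1012 and 1261). This gave 475 and 944 neutrophils, 616 and 948 macrophages, 2023 and 1967 T cells, 325 and 442 epithelial cells and 128 and 228 fibroblasts. A UMI of Csf3r was seen in 73.5% and 67.8% of neutrophils and Cd3e in 74.1% and 76.7% of T cells. Epcam was seen in 78.5% and 88.2% of epithelial cells and Pdgfra in 61.7% and 57.9% of fibroblasts. These genes were among the markers that set the gates, which raised their shares. Of genes that set no gate, Itgam was seen in 42.9% and 37.4% of neutrophils, against 11.5% and 11.0% of T cells. It was seen in more macrophages (47.9% and 60.7%), so it does not set neutrophils apart from them. Cd2 was seen in 51.8% and 44.8% of T cells, against 4.87% and 6.54% of macrophages. Among B cells, gated as a reference used below, it was seen in 55.2% and 63.6%, so it does not set T cells apart from those. Ptprc, which encodes CD45, was seen in 83.3% and 89.9% of macrophages, against 13.5% and 14.9% of epithelial cells. C1qa, a macrophage marker, had a UMI in 22.4% to 44.3% of cells in the other gates. The part of free RNA from lysed cells in this was not tested, and no doublet caller was run. Levels are UMIs of a gene per 1000000 UMIs (CPM), summed over the cells of a gate, and all intervals are 95% and cover counting error only. Both libraries shared 18 barcodes.

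Glycolysis genes took the largest shares of UMIs in neutrophils and epithelial cells in both libraries. These are shares and not amounts of RNA per cell. Neutrophils had the fewest UMIs per cell of the gates, with medians of 2794 and 2234. The 15 genes together took 0.506% and 0.462% of the UMIs of neutrophils and 0.425% and 0.374% of those of epithelium. T cells followed with 0.286% and 0.288%, close to macrophages with 0.283% and 0.295%, and fibroblasts were lowest with 0.191% and 0.176%. Of the 15 genes, 5 and 6 were highest in neutrophils, 9 and 7 in epithelium and 1 and 2 in T cells.

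Both ends of the pathway, sugar entry and lactate exit, were the steps that set neutrophils apart. Slc2a3, the high-affinity glucose transporter GLUT3, stood at 367 CPM (336 to 400) in normal adjacent neutrophils and 325 CPM (303 to 348) in tumour neutrophils. This was 19.8 and 13.2 times the next gate, T cells, and only 10 and 24 UMIs were counted in all epithelial cells. Slc16a3, the lactate exporter MCT4, reached 781 and 805 CPM in neutrophils, 7.71 and 6.45 times its level in macrophages. In fibroblasts only 4 and 11 UMIs of Slc16a3 were seen. Pkm, which makes pyruvate in the last step of glycolysis, was also highest in neutrophils at 1194 and 960 CPM, 1.63 and 1.37 times epithelium. Gapdh and Eno1 completed the genes that were highest in neutrophils in both libraries.

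Epithelial cells led for the other glucose transporter and for much of the middle of the pathway. Slc2a1, the widely expressed transporter GLUT1, had 176 and 165 CPM in epithelium and 136 and 155 CPM in neutrophils, and in the tumour library these intervals overlapped. Pfkl, the liver-type phosphofructokinase, had 109.8 and 109 CPM in epithelium, 2.16 and 2.35 times the next gate. Its platelet-type counterpart Pfkp was highest in T cells and low in epithelium, with 153 and 167 CPM in T cells and 37.5 and 46.1 CPM in epithelium. Tpi1 (triose phosphate isomerase) had 439 and 395 CPM in epithelium and Pgk1 (phosphoglycerate kinase) 588 and 492 CPM. Ldha, which turns pyruvate into lactate, led in epithelium at 718 CPM in the normal adjacent library, while at 625 CPM in the tumour library it overlapped T cells at 606 CPM. Gpi1, the isomerase after hexokinase, had 327 and 281 CPM in epithelium and 323 and 320.0 CPM in T cells, which led in the tumour library. The leading gates of Hk1, Hk2, Pfkp and Pgam1 were not separated from the next by their intervals in either library.

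**Figure D1:**
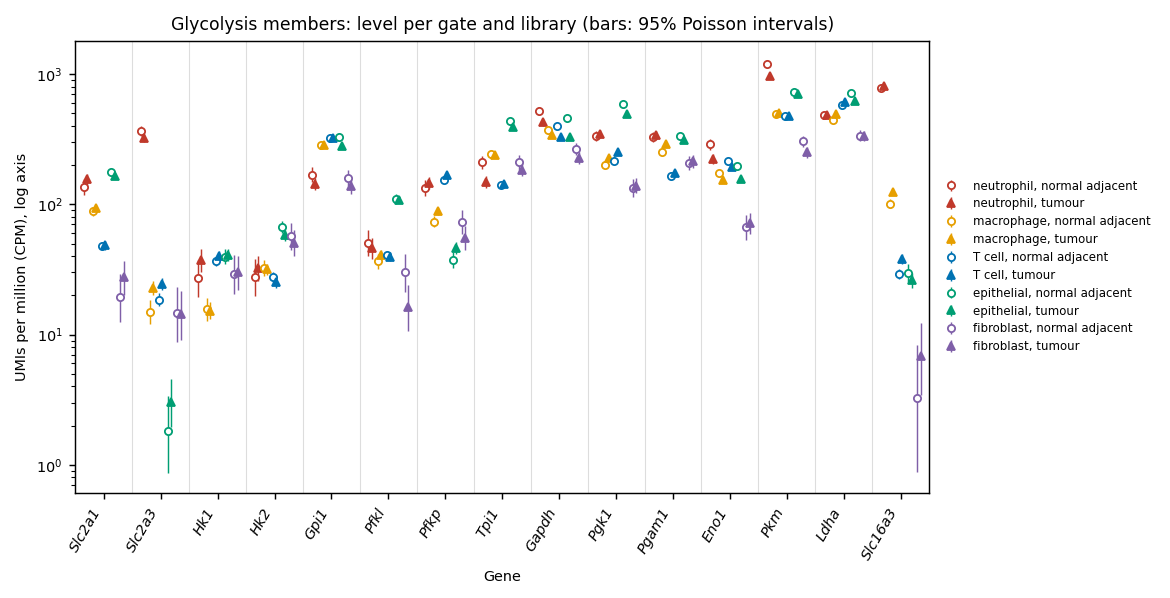
Level of the 15 glycolysis genes in 5 gates of both libraries, as CPM on a log axis, with 95% Poisson intervals as bars. Slc2a3 and Slc16a3 stand far higher in neutrophils than in any other gate, while Pfkl, Tpi1 and Pgk1 are highest in epithelium.

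HIF targets followed the order of gates seen for glycolysis, except that T cells and macrophages changed places in the tumour library, where they lay close for glycolysis. The 19 genes took 0.251% and 0.223% of neutrophil UMIs, 0.196% and 0.190% of epithelial, 0.162% and 0.156% of T cell, 0.117% and 0.124% of macrophage and 0.0866% and 0.0993% of fibroblast UMIs. Neutrophils led for 6 and 8 of them, epithelium for 8 and 7, fibroblasts for 3 and 3, T cells for 1 and 1 and macrophages for 1 and 0.

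In neutrophils the leading targets were lipid storage, angiogenesis and protein folding genes. Hilpda, which blocks lipid droplet breakdown, had 695 and 520.1 CPM in neutrophils, and T cells came next with 426 and 384 CPM. Vegfa, the vascular endothelial growth factor, had 297 and 285 CPM, 2.82 and 2.22 times macrophages. Ero1l, an oxidase that forms disulfide bonds in the endoplasmic reticulum, had 203 and 152 CPM, 2.33 and 1.84 times T cells. Bnip3l, a receptor for removal of mitochondria, was at 252 CPM in normal adjacent neutrophils, above every other gate, and at 182 CPM in tumour neutrophils, where it overlapped epithelium at 170.4 CPM. Egln3 and Bnip3, an oxygen sensor and another mitophagy receptor, led in neutrophils too, but overlapped epithelium by their intervals, Egln3 in the normal adjacent library and Bnip3 in both.

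Epithelium was highest for Mif, Fam162a and Pdk1. Mif, a secreted cytokine, had 701 and 740 CPM there and 427 and 441 CPM in neutrophils. Fam162a, a mitochondrial protein, had 210.4 and 223 CPM, 2.66 and 2.16 times fibroblasts. Pdk1, which keeps pyruvate out of mitochondria, had 27.3 and 26.0 CPM, and only 12 and 17 UMIs were counted in neutrophils. Higd1a, a partner of the respiratory chain, was highest in T cells with 193 and 176 CPM, close to epithelium with 183 and 158 CPM.

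For the remaining targets the leading gates lay close in at least 1 library. Ddit4, an inhibitor of mTORC1, had 57.7 CPM in normal adjacent epithelium, above T cells at 34.7 CPM, but 30.4 CPM in tumour epithelium, which overlapped fibroblasts. Ndrg1, a stress-response gene, had 87.1 and 112 CPM in epithelium and 86.5 and 98.4 CPM in fibroblasts. Kdm3a, a histone demethylase, had 52.6 and 49.7 CPM in epithelium and 41.1 and 40.5 CPM in neutrophils. Ankrd37 had 24.2 and 14.9 CPM in epithelium and 20.9 and 25.0 CPM in neutrophils, so its order turned. Its intervals were apart in the tumour library only. Mxi1, a Myc antagonist, led in macrophages (122 CPM) in the normal adjacent library and in neutrophils (155 CPM) in the tumour library.

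Fibroblasts led for Adm, P4ha1 and Egln1. Adm, the vasodilator peptide adrenomedullin, had 26.1 and 11.3 CPM in fibroblasts and 12.6 and 11.3 CPM in epithelium, and no UMI of it was counted in any neutrophil of either library. P4ha1, a collagen prolyl hydroxylase subunit, had 73.4 and 99.0 CPM in fibroblasts, with macrophages at 72.6 and 74.9 CPM. Its relative P4ha2 was instead highest in epithelium at 32.4 and 27.7 CPM, with 1 and 3 UMIs in neutrophils. Egln1 had 19.6 and 25.1 CPM in fibroblasts, and the intervals of the next gates overlapped.

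**Figure D2:**
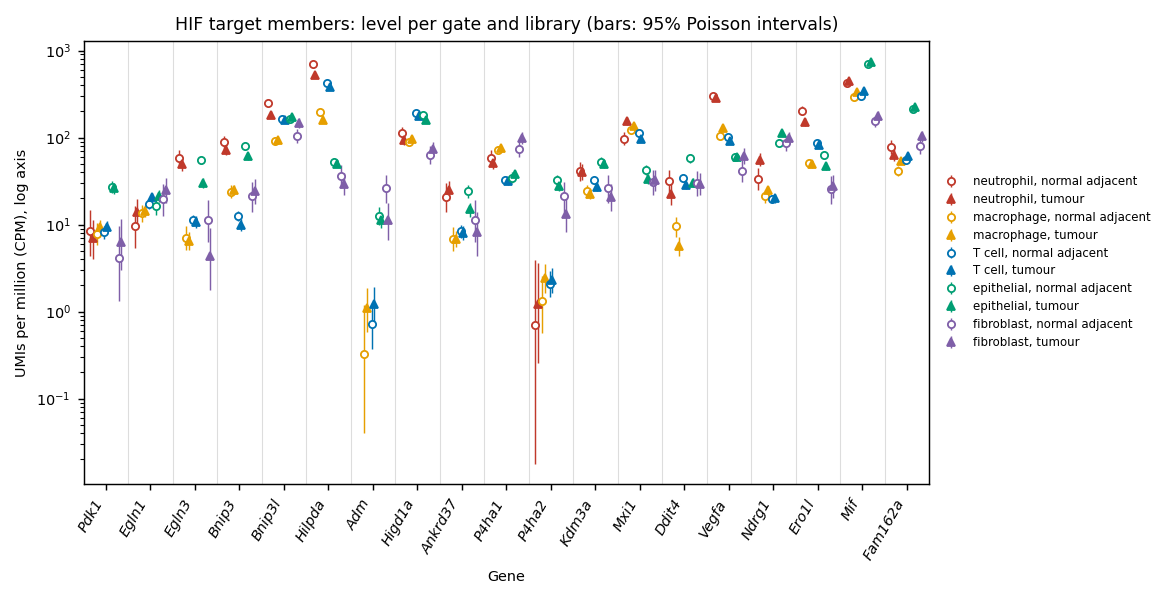
Level of the 19 HIF targets in 5 gates of both libraries, as CPM on a log axis, with 95% Poisson intervals as bars. Hilpda, Vegfa and Ero1l are highest in neutrophils, Mif, Fam162a and Pdk1 in epithelium, and Adm has no neutrophil UMI.

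As a reference for free RNA, B cells were taken, 306 and 206 cells with a median of 4774 and 4664 UMIs, against 2794 and 2234 in neutrophils. With every cell thinned to 1000 UMIs, Slc16a3 was found in 45.6% and 50.0% of neutrophils and in 0.336% and 0% of B cells. Of the 204 tumour B cells deep enough, 0 had a UMI, which allows up to 1.79% (exact Clopper-Pearson interval). Before thinning these shares were 72.4% and 73.3% of neutrophils and 2.61% and 5.34% of B cells. Slc2a3 was found in 22.8% and 22.0% of thinned neutrophils and 1.34% and 0.980% of B cells, and Vegfa in 18.0% and 20.6% against 1.34% and 2.45%. Mif was at 27.2% and 29.1% in neutrophils against 25.2% and 17.2% in B cells, and Hilpda at 25.0% and 18.5% against 12.4% and 7.84%. In epithelium only 3.45% and 2.55% of thinned cells had a Hilpda UMI, fewer than among B cells, and the part of free RNA in that level was not tested. B cells may also express Hilpda and Mif themselves, so their share sets no exact floor.

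For the comparison between tissues, a gene counts as measured in a gate with at least 50 UMIs over both libraries. It counts as higher when its tumour CPM was at least 25% above the normal adjacent one, and as lower when at least 20% under it, which is the same fold. In neutrophils the median log2 ratio was -0.01 over 15 of 15 glycolysis genes and -0.24 over 15 of 19 HIF targets, against 0.05 over all 4791 genes measured. In macrophages the medians were 0.09 (15 genes) and 0.06 (17), against 0.03 over all genes, and in T cells 0.03 (15) and -0.06 (18), against 0.02. In epithelium they were -0.17 (14) and -0.08 (19), against 0.05. In fibroblasts they were -0.17 (13) and 0.20 (15), against -0.03. Gapdh was the gene with the most uniform direction, with a ratio below 1 and an interval below 1 in all 5 gates, from 0.719 in epithelium to 0.908 in macrophages. Gapdh has many processed pseudogenes and Eno1 a near-identical copy, Eno1b, so their counts may be split between copies. Of 10 dissociation and heat shock genes, all 10 had ratios below 1 in macrophages (median log2 ratio -0.32), and 5 counted as lower. Over all genes measured in macrophages, 43.1% had ratios below 1 and 8.0% were lower. The medians of these 10 genes were -0.02 in neutrophils, -0.20 in T cells, -0.13 in epithelium and -0.14 in fibroblasts. Their part in the ratios below was not tested.

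**Figure D3:**
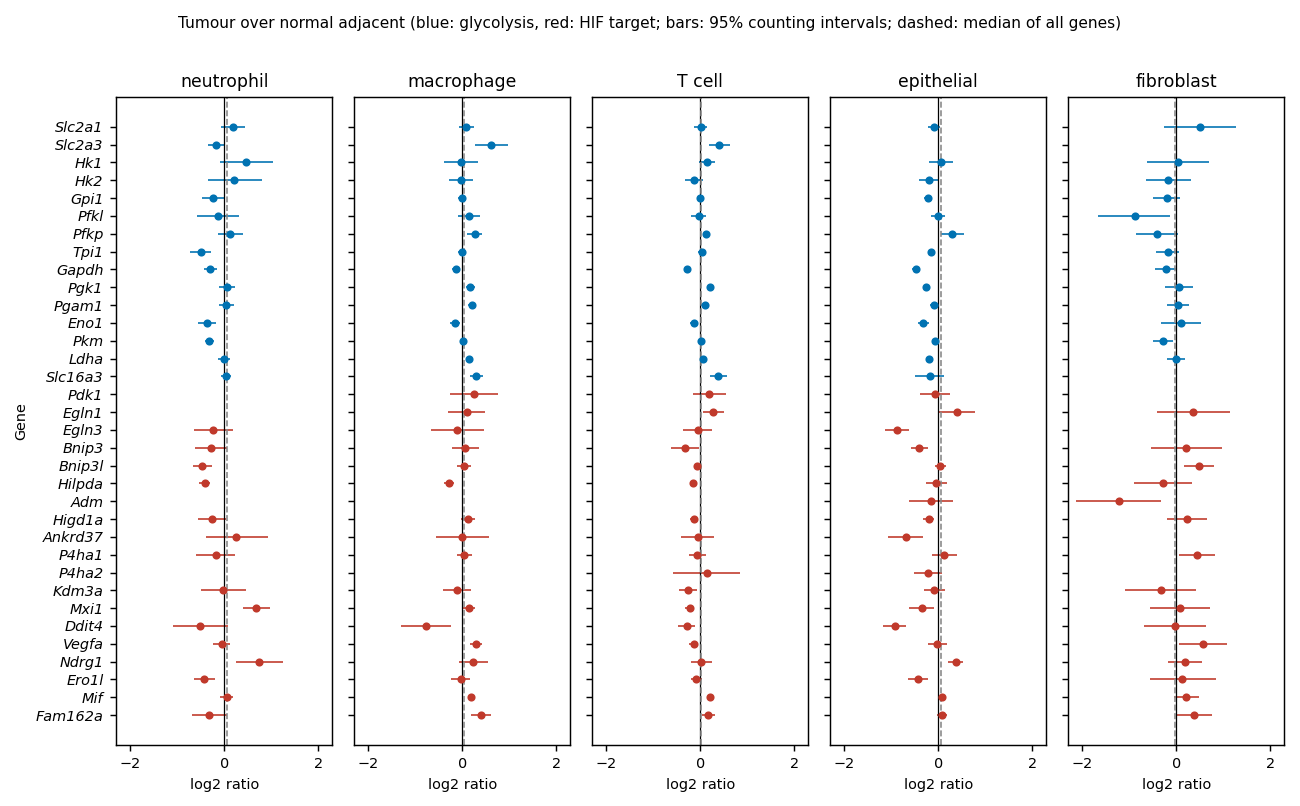
Ratio of tumour over normal adjacent CPM on a log2 axis for each gene with at least 50 UMIs in a gate (blue, glycolysis; red, HIF targets), with 95% counting intervals; the dashed line is the median of all measured genes. Most points lie near 0, with Mxi1 and Ndrg1 higher in tumour neutrophils and Egln3 and Ddit4 lower in tumour epithelium.

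In tumour neutrophils Hilpda, Bnip3l and Ero1l were lower among the HIF targets, and Tpi1 and Eno1 among the glycolysis genes. Of 15 HIF targets measured 4 were lower and 2 higher, and of 15 glycolysis genes 2 were lower and 1 higher. Over all measured genes, 12.6% were lower and 19.9% higher. By their intervals, 6 glycolysis genes lay below 1 and 0 above, and 3 HIF targets lay below and 2 above. Over all genes, 7.8% lay below 1 by their intervals and 13.75% above. Hilpda had 695 and 520.1 CPM, a ratio of 0.749 (0.689 to 0.814). That ratio was 0.573 with all gate thresholds halved and 0.932 with them doubled. In B cells Hilpda had 146 and 72.6 CPM, and the part of free RNA in the neutrophil ratio was not tested. Bnip3l had 252 and 182 CPM, a ratio of 0.723 (0.628 to 0.832), and Ero1l 203 and 152 CPM, a ratio of 0.747 (0.639 to 0.874). The Bnip3l ratio was 0.865 with thresholds doubled and 0.811 with cells thinned, both short of the 20% rule. Tpi1 had 209.5 and 148 CPM, a ratio of 0.705 (0.603 to 0.824), with 12.0% of its normal adjacent UMIs in 1 cell and 0.777 (0.661 to 0.915) once the cell with most UMIs was left out of each library. Eno1, the enolase, had 288 and 223 CPM, a ratio of 0.772 (0.678 to 0.88). With cells that met several marker sets kept, the ratios were 0.833 for Ero1l, 0.844 for Tpi1 and 0.82 for Eno1, which end these calls. Pkm and Gapdh were lower by less, with ratios of 0.804 and 0.811. The lactate exporter Slc16a3 did not follow, with a ratio of 1.03 (0.957 to 1.11), nor did Pgk1 with 1.04, Pgam1 with 1.03 or Ldha with 0.996 (0.906 to 1.10). Hk1, an entry hexokinase, was the 1 glycolysis gene counted as higher at 1.37, and its interval (0.933 to 2.05) held 1. In the other direction, Mxi1 had 96.8 and 155 CPM, a ratio of 1.61 (1.32 to 1.97), which came down to about the 25% limit with cells in several gates kept. Ndrg1 had 33.4 and 55.6 CPM, a ratio of 1.67 (1.19 to 2.37).

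Within neutrophils, 6 of 11 HIF targets were higher at the high end of a chemokine axis, while glycolysis genes differed about as often as all genes. Cells of both libraries were ranked by the share of their UMIs from Ccl3 and Ccl4, chemokines of activated neutrophils, and cut into 3 equal subsets (low, middle, high) of 163, 155 and 157 normal adjacent and 310, 318 and 316 tumour cells. Hilpda was 4.78 times (3.95 to 5.82) and 3.09 times (2.62 to 3.65) as high in the high subset as in the low one, in the normal adjacent and the tumour library. Vegfa was 2.09 and 2.23 times as high, Egln3 2.58 and 2.64 times, P4ha1 5.46 and 2.26 times and Tpi1 2.64 and 1.72 times. Both neutrophil transporters ran the other way: Slc2a3 was 2.34-fold and 1.40-fold lower in the high subset, and Slc16a3 2.28-fold and 1.44-fold lower. Mxi1 was 2.12-fold and 3.40-fold lower there. Among HIF targets measured in both libraries, 6 of 11 had intervals above 1 in both and 1 below, and among glycolysis genes 2 of 13 above and 3 below. Over all 2041 genes measured, these shares were 15.2% above and 20.4% below.

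Ratios between tissues were also read within each subset, and their differences between subsets were not tested. In the high subset Hilpda had 1293 and 742 CPM, a ratio of 0.574 (0.513 to 0.642). In the low subset it had 271 and 240.5 CPM, a ratio of 0.888 (0.707 to 1.12), and in the middle subset 481 and 572 CPM, a ratio of 1.19 (1.01 to 1.40). In the low subset 7 of 13 glycolysis genes were lower and 0 higher, where 12.3% of genes were lower and 24.0% higher, with Slc16a3 at 0.799 (0.713 to 0.895) and Pkm at 0.722 (0.648 to 0.805). In the high subset 2 of 14 were lower and 3 higher, against 18.1% and 21.7% of genes, and Slc16a3 stood at 1.26 (1.08 to 1.48) and Slc2a3 at 1.30 (1.03 to 1.66). In the middle subset 2 of 13 were lower and 1 higher, against 14.4% and 23.0%. The higher Mxi1 of tumour neutrophils was found in the low subset, at 1.79 (1.33 to 2.43), and the middle subset, at 1.64 (1.18 to 2.32), but not resolved in the high subset, at 1.11 (0.699 to 1.80).

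**Figure D4:**
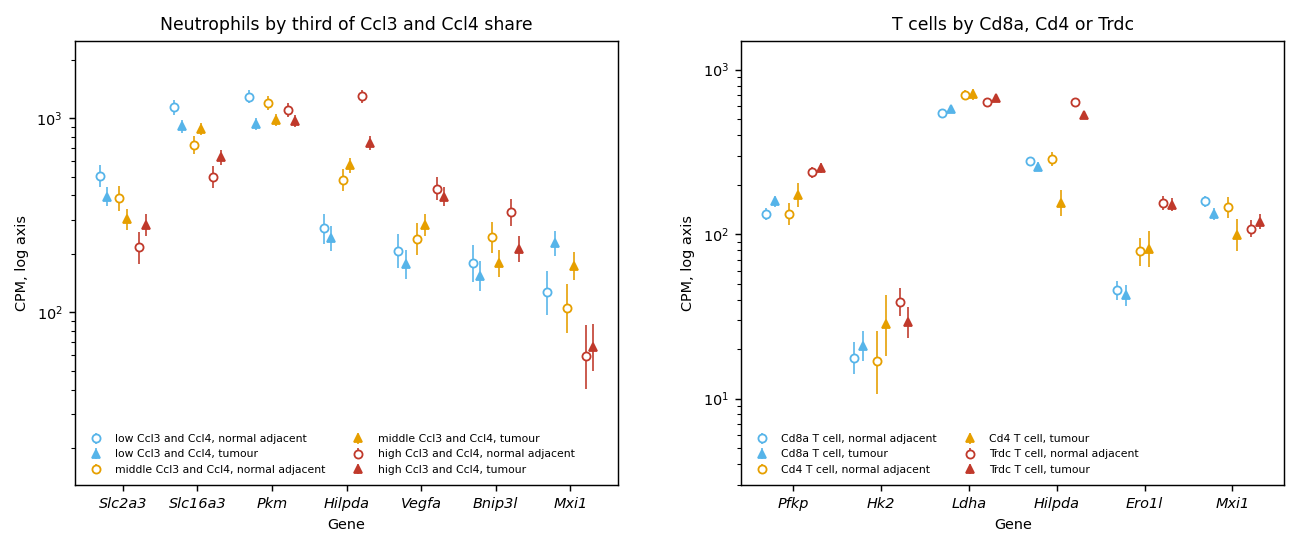
Levels as CPM on log axes, with 95% Poisson intervals, of 7 genes in 3 neutrophil subsets by Ccl3 and Ccl4 share (left) and of 6 genes in T cells with a Cd8a, Cd4 or Trdc UMI (right), open circles for normal adjacent and triangles for tumour. Hilpda and Vegfa are higher at a high chemokine share, while Slc2a3, Slc16a3 and Mxi1 are lower, and Hilpda and Ero1l are highest in Trdc T cells.

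Macrophages differed by small margins between tissues. By their intervals, 6 of 15 glycolysis genes lay above 1 and 2 below, and 4 of 17 HIF targets above and 2 below. Over all genes, 12.5% lay above 1 by their intervals and 8.0% below. Slc2a3 had 14.9 and 22.8 CPM, a ratio of 1.53 (1.20 to 1.96), and was the 1 glycolysis gene counted as higher, where 11.8% of genes were higher and 8.0% lower. Its level in macrophages was far under that of neutrophils, and 0.697% and 1.87% of thinned macrophages had a UMI, against 1.34% and 0.980% of B cells, which did not set it apart from B cells. Its ratio was 3.47 with cells thinned. Slc16a3 was higher by less, with 101 and 125 CPM and a ratio of 1.23 (1.12 to 1.36), and Vegfa too, with 105 and 129 CPM and a ratio of 1.22 (1.11 to 1.34). Thinned shares of Slc16a3 were 6.45% and 11.0% of macrophages. Of the HIF targets, Fam162a was higher with 41.2 and 54.2 CPM, a ratio of 1.31 (1.13 to 1.53), but 0.924 when cells were thinned to equal depth. Ddit4 was lower with 9.52 and 5.60 CPM, a ratio of 0.588 (0.407 to 0.851), but 0.813 with gate thresholds halved. Hilpda had 197 and 161 CPM, a ratio of 0.819 (0.761 to 0.881), beside the lower B cell level given above. Macrophages of the tumour library were deeper, with a median of 9980.5 UMIs against 7481.

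T cells also differed by small margins. By their intervals, 6 of 15 glycolysis genes lay above 1 and 2 below, and 3 of 18 HIF targets above and 7 below. Over all genes, 14.9% lay above 1 by their intervals and 12.3% below. Slc2a3 had 18.6 and 24.6 CPM, a ratio of 1.32 (1.14 to 1.54), and Slc16a3 29.1 and 38.0 CPM, a ratio of 1.30 (1.15 to 1.47), the 2 glycolysis genes counted as higher, where 9.76% of genes were higher and 6.99% lower. Thinned to equal depth, the Slc2a3 ratio was 1.12. The Slc16a3 ratio was 1.53 with cells thinned but 1.14 with each cell at equal weight and 1.18 with thresholds halved or cells in several gates kept, which is under the 25% rule. Thinned shares of Slc16a3 were 2.42% and 3.85% of T cells, above those of B cells. Bnip3 was the 1 HIF target counted as lower, with 12.5 and 9.98 CPM and a ratio of 0.798 (0.644 to 0.986), but 0.838 (0.673 to 1.04) without the top cell of each library and 0.481 with cells thinned. Pgk1 had 216 and 251 CPM, a ratio of 1.16 (1.11 to 1.22), and Gapdh 400 and 327 CPM, a ratio of 0.819 (0.789 to 0.849). These are adjacent steps of the pathway, and their ratios lay on opposite sides of 1.

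T cell subsets differed from each other in both libraries. T cells with a UMI of Trdc, the constant chain of the γδ receptor (384 and 503 cells), were set against those with Cd8a (478 and 439), each without the other markers. Ero1l was 3.42 times (2.89 to 4.06) and 3.54 times (2.98 to 4.23) as high in Trdc cells, with 156 and 151 CPM against 45.5 and 42.7 CPM. Hilpda was 2.29 and 2.07 times as high, Ddit4 1.77 and 1.78 times and Egln3 2.54 and 4.48 times. Of the entry enzymes, Hk2 was 2.19 and 1.39 times as high and Pfkp 1.79 and 1.60 times. Gapdh was 1.55-fold and 1.45-fold lower in Trdc cells, and Tpi1 1.33-fold and 1.64-fold lower. In all, 7 of 15 glycolysis genes lay above 1 by their intervals in both libraries and 3 below, and of 16 HIF targets 4 above and 1 below, where 14.0% of genes lay above and 11.6% below.

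Cycling T cells were those with at least 2 UMIs of Mki67, Top2a, Birc5 and Ube2c (203 and 225 cells). They had higher levels of Gpi1, Tpi1, Gapdh, Pgk1, Pgam1, Eno1, Pkm and Ldha than the other T cells. Of 15 glycolysis genes, these 8 lay above 1 by their intervals in both libraries and 0 below. Over all genes, 14.3% lay above and 11.6% below. Tpi1 was 1.56 and 1.78 times as high as in the other T cells, Pgk1 1.46 and 1.52 times and Gapdh 1.35 and 1.39 times. The steps of uptake and commitment did not share this: Slc2a1 had ratios of 0.820 and 0.954, Hk2 0.892 and 0.902 and Pfkp 1.03 and 0.929. HIF targets went both ways, with Mif (1.37 and 1.38), Fam162a (1.45 and 1.19) and Ndrg1 (1.45 and 1.91) above and Hilpda (1.42-fold and 1.47-fold lower), Ero1l and Bnip3l below, of 17 measured. Cycling cells were deeper, with medians of 13093 and 13049 UMIs against 5837.5 and 5311.

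Epithelium of the tumour library had lower CPM of most glycolysis genes by small margins, and of Ddit4 and Egln3 by more. Of the 14 glycolysis genes measured, 12 had ratios below 1, where 40.9% of all measured genes did. By their intervals, 9 lay below 1 and 1 above, where 7.8% of all genes lay below and 14.4% above. Gapdh alone counted as lower, with 457 and 329 CPM and a ratio of 0.719 (0.681 to 0.760), where 8.07% of genes were lower and 15.0% higher. Eno1 had 196 and 157 CPM, a ratio of 0.8 (0.737 to 0.869), Pgk1 588 and 492 CPM, a ratio of 0.837 (0.798 to 0.877), and Ldha 718 and 625 CPM, a ratio of 0.870 (0.834 to 0.908). Pfkp was above 1, at 1.23 (1.03 to 1.47).

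Of 19 HIF targets, 6 were lower and 2 higher, where 8.07% of genes were lower and 15.0% higher. By their intervals, 7 lay below 1 and 3 above, where 7.8% of all genes lay below and 14.4% above. Ddit4 had 57.7 and 30.4 CPM, a ratio of 0.527 (0.443 to 0.625), and Egln3, the oxygen sensor that HIF itself induces, 55.4 and 30.0 CPM, a ratio of 0.542 (0.456 to 0.645). These were the furthest from 1 of all targets measured in epithelium. Ero1l had 63.7 and 47.2 CPM, a ratio of 0.741 (0.639 to 0.860), and Bnip3 80.5 and 60.9 CPM, a ratio of 0.757 (0.664 to 0.863). Ankrd37 had 24.2 and 14.9 CPM, a ratio of 0.617 (0.477 to 0.797). A single normal adjacent cell held 23.3% of its UMIs, and without the top cell of each library the ratio was 0.768 (0.582 to 1.01). With cells thinned to 1000 UMIs the ratios were 0.352 for Egln3, 0.444 for Bnip3 and 0.370 for Ankrd37, and with each cell at equal weight Bnip3 stood at 0.993. Mxi1 was lower at 0.782 (0.653 to 0.936), but was 1.18 after thinning to equal depth. Ndrg1 was higher, with 87.1 and 112 CPM and a ratio of 1.29 (1.15 to 1.45), and Egln1 too, with 16.2 and 21.4 CPM and a ratio of 1.32 (1.02 to 1.73), but 1.07 with cells thinned. Tumour epithelial cells were deeper, with a median of 13657 UMIs against 7517, and had a median mitochondrial share of 5.24% against 3.87%.

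The epithelial gate mixed kinds of cells that the libraries held in different numbers. Basal cells, with more UMIs of Krt5, Krt14 and Krt15, numbered 124 and 212. Cells with more UMIs of Krt4 and Psca, keratin and surface antigen genes of the luminal side, numbered 72 and 90, and are called Krt4/Psca cells since 2 markers do not name a cell type. A further 129 and 140 cells, with medians of 1334 and 1986.5 UMIs, fell in neither. In both libraries Krt4/Psca cells had less Slc2a1, Pfkp, Pkm, Adm, P4ha1, Ndrg1 and Mif than basal cells. Ndrg1 was 3.46-fold (2.68 to 4.53) and 4.12-fold (3.31 to 5.18) lower, with 40.1 and 40.7 CPM against 139 and 168 CPM. The glucose transporter Slc2a1 was 1.48-fold and 2.07-fold lower, Mif 1.59-fold and 2.0-fold lower and Pfkp 1.51-fold and 1.65-fold lower. Of 14 glycolysis genes, 0 lay above 1 by their intervals in both libraries and 3 below, and of 19 HIF targets 0 above and 4 below, where 9.93% of genes lay above and 10.7% below.

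In Krt4/Psca cells 12 of 14 glycolysis genes and 15 of 18 HIF targets measured had ratios below 1. The glycolysis genes had a median log2 ratio of -0.27 against -0.01 over all genes, of which 50.7% were below 1. Of these 14, 5 counted as lower and 0 as higher, and of 18 HIF targets 8 were lower and 1 higher (Egln1, 1.5, with an interval from 0.941 to 2.44), where 14.9% of genes were lower and 13.5% higher. Gapdh had 482 and 311 CPM, a ratio of 0.645 (0.582 to 0.713), and Eno1 198 and 142 CPM, a ratio of 0.715 (0.613 to 0.835). Slc2a1 had 147 and 104 CPM, a ratio of 0.707 (0.590 to 0.847), Hk2 73.9 and 46.5 CPM, a ratio of 0.629 (0.481 to 0.820), and Slc16a3 33.3 and 14.8 CPM, a ratio of 0.443 (0.280 to 0.690). Hk1, the other hexokinase, was not among them, with 33.9 and 38.5 CPM and a ratio of 1.14 (0.807 to 1.61). Among HIF targets, Hilpda had 76.8 and 40.2 CPM, a ratio of 0.524 (0.397 to 0.689), in an epithelium with fewer Hilpda cells than B cells had, and Ddit4 54.8 and 32.6 CPM, a ratio of 0.596 (0.434 to 0.816). Egln3 had 65.5 and 42.5 CPM, a ratio of 0.649 (0.489 to 0.858), Ero1l 67.7 and 44.7 CPM, a ratio of 0.660 (0.501 to 0.868), and Vegfa 59.3 and 42.9 CPM, a ratio of 0.724 (0.543 to 0.964). Bnip3 was level at 0.994 (0.771 to 1.28). The median of the HIF targets was -0.25, and -0.02 with cells thinned to 5000 UMIs.

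In basal cells the medians were -0.07 over 14 glycolysis genes, 12 of them below 1, and -0.14 over 19 HIF targets, 10 of them below 1. Over all genes the median was 0.00, and 49.4% were below 1. Of the glycolysis genes 2 were lower and 0 higher, and of the HIF targets 4 were lower and 2 higher, where 11.7% of genes were lower and 13.9% higher. The 2 glycolysis genes were Gapdh, with 456 and 334 CPM and a ratio of 0.731 (0.678 to 0.789), and Eno1, with 218 and 168 CPM and a ratio of 0.771 (0.692 to 0.860). Pgk1 had a ratio of 0.972 (0.909 to 1.04) and Slc2a1 of 0.989 (0.892 to 1.10). Ddit4 and Egln3 were low here too. Ddit4 had 49.7 and 19.4 CPM, a ratio of 0.390 (0.294 to 0.515), and Egln3 55.9 and 26.2 CPM, a ratio of 0.468 (0.364 to 0.6). Bnip3 stood at 0.755 (0.615 to 0.927), but at 0.841 (0.678 to 1.04) without the top cell of each library. Hilpda was higher, with 36.2 and 49.4 CPM and a ratio of 1.37 (1.07 to 1.75), but 1 tumour cell held 36.5% of its UMIs, and without the top cell of each library the ratio was 1.11 (0.833 to 1.48). The part of free RNA in this level, as in that of the whole epithelium, was not tested. Ankrd37 likewise went from 0.570 to 0.879 (0.596 to 1.30), since 1 normal adjacent cell held 39.7% of its UMIs. Mif was above 1 in basal cells, at 1.12 (1.06 to 1.18), and below 1 in Krt4/Psca cells, at 0.893 (0.817 to 0.977). The difference between these cell kinds in their tissue ratios was not tested.

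**Figure D5:**
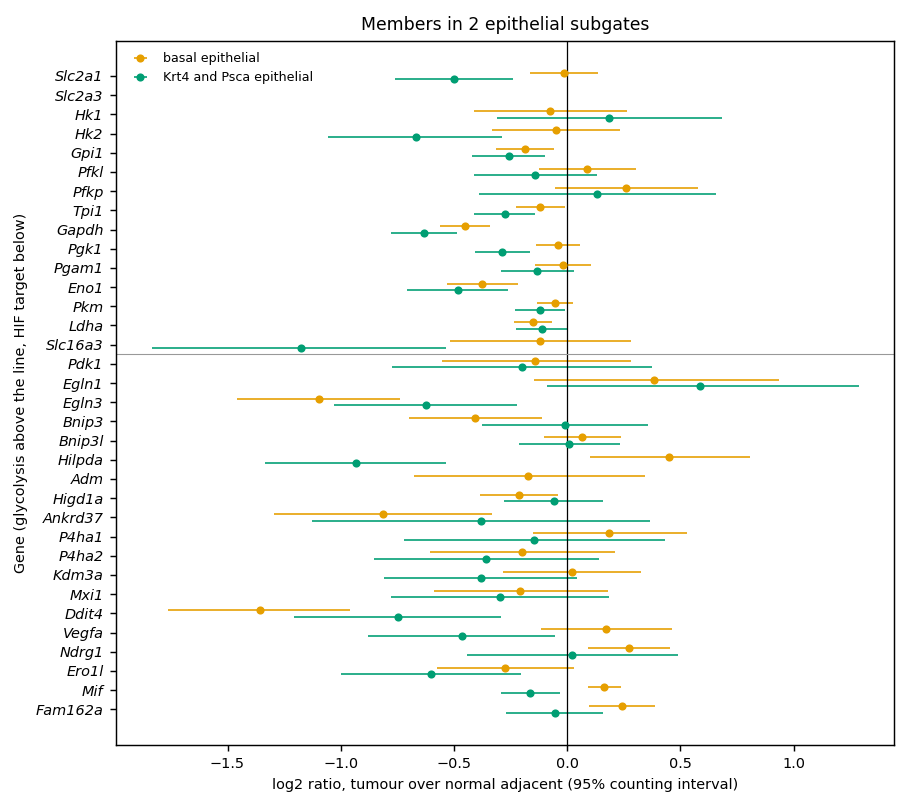
Ratio of tumour over normal adjacent CPM on a log2 axis, with 95% counting intervals, for the glycolysis genes (above the line) and HIF targets (below it) measured in Krt4/Psca and basal cells. In Krt4/Psca cells 12 of 14 glycolysis genes lie below 0, and Ddit4 and Egln3 lie below 0 in both kinds of cells.

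Fibroblasts, with the fewest cells, had 11 of 15 HIF targets above 1 and 5 of 13 glycolysis genes. Over all genes measured there, 2937 of 6248 lay above 1. Of the HIF targets 5 were higher and 2 lower, and of the glycolysis genes 1 was higher and 2 lower, where 15.0% of genes were higher and 16.4% lower. Bnip3l had 104 and 146 CPM, a ratio of 1.40 (1.12 to 1.75), and P4ha1 73.4 and 99.0 CPM, a ratio of 1.35 (1.03 to 1.77). Vegfa had 41.6 and 61.4 CPM, a ratio of 1.48 (1.04 to 2.11), and Fam162a 79.1 and 103 CPM, a ratio of 1.31 (1.01 to 1.70). Adm ran the other way, with 32 and 18 UMIs and a ratio of 0.432 (0.228 to 0.793). Pfkl had 37 and 26 UMIs, a ratio of 0.540 (0.314 to 0.916), but a ratio of 1 with cells that met several marker sets kept. The P4ha1 ratio was 2.89 with cells thinned and 1.15 with cells in several gates kept. With each cell given the same weight Bnip3l stood at 1.03.

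A further 50 genes of the pathways gave a mixed picture. In neutrophils 2 of 15 measured were higher and 5 lower, where 19.9% and 12.6% of all genes were. In macrophages 2 of 28 were higher and 7 lower (11.8% and 8.0% of all genes), in T cells 6 of 34 and 3 (9.76% and 6.99%), in epithelium 6 of 33 and 3 (15.0% and 8.07%) and in fibroblasts 5 of 19 and 5 (15.0% and 16.4%). Ldhb, the lactate dehydrogenase subunit that favours pyruvate, was 3.71 times (2.74 to 5.13) as high in tumour epithelium, with 9.11 and 33.8 CPM. Of its 50 and 267 UMIs there, 7 and 118 lay in the cells of neither subset, and in basal cells the ratio was 1.92 (1.31 to 2.86). Ldhb was lower in tumour macrophages (0.445) and T cells (0.501). The carbonic anhydrases Car9 and Car12, which keep pH in hypoxic cells, were higher in tumour epithelium, Car9 with 7.83 and 14.1 CPM, a ratio of 1.80 with an interval above 1, and Car12 with 8.56 and 15.7 CPM, a ratio of 1.83 (1.30 to 2.62). In tumour neutrophils Hmox1 (haem oxygenase) was at 0.556 and Plin2, a lipid droplet coat protein, at 0.601. Tumour macrophages had Aldoc at 1.95, Vhl at 0.661 and Arg1 at 0.234, and 1 cell held 73.8% of the normal adjacent Arg1 UMIs (0.609 (0.252 to 1.5) without top cells). Arg1 was at 1.54 in T cells. In fibroblasts Angptl4, a lipase inhibitor, was at 0.351. Hif1a itself had 113 and 134 CPM in epithelium, a ratio of 1.18 (1.07 to 1.31), and 190.0 and 180.4 CPM in neutrophils, a ratio of 0.95.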

How the data were processed

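Per the file headers, the deposited matrices were written by Cell Ranger 4.0.0 and hold whole-number UMI counts per gene and barcode, not normalized by the authors. The submitters' processing notes also name R 4.0.3, Seurat 3.2.2 and GRCh38, a human build, although only mouse genes were counted. A mouse build is not given in the sources used here. The libraries held 6553 and 8237 barcodes, 77855775 and 92188538 UMIs, and a median of 6017 and 6015 UMIs. Cells were gated on raw marker UMIs. No doublet caller was run; cells in more than 1 gate were left out. UMIs were summed per gate and library and scaled to CPM, with exact Poisson intervals, and ratios had exact conditional binomial intervals (Python 3.11.15, NumPy 2.4.6, pandas 2.3.3, SciPy 1.17.1, matplotlib 3.10.9). Scripts were tested on simulated data. For list medians 0.5 UMIs were added. With 1 library a group no test was made. Named genes were at least 25% higher or 20% lower (1.5-fold for the further 50) with an interval that excludes 1, or were the highest gate of a gene; other values were chosen after they were seen. The members and lists were chosen with earlier results of these data known. Alternatives covered thinning, gate thresholds, cells in several gates, 500 genes a cell, equal weight per cell, scaling and low counts. Chosen after the data were seen were leaving out mitochondrial and ribosomal genes, shared barcodes or the cell with most UMIs of a gene, and those for epithelial subsets. A marker first meant for the epithelial subsets is not reported here, so they were redefined without it after the data were seen.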

Additional observations from a re-analysis of the deposited data

Results flagged for a closer look

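Bnip3l had intervals on opposite sides of 1 in neutrophils (ratio of tumour over normal adjacent 0.723) and fibroblasts (1.40). Mxi1 did so in neutrophils (1.61) and epithelium (0.782), and Hilpda in basal (1.37) and Krt4/Psca cells (0.524) of the epithelium. Each pair was singled out because the libraries differed in opposite directions. The difference between the 2 cell kinds was not tested in any of these cases. For Hilpda in basal cells, the ratio was 1.11 with the cell holding most of its UMIs left out of each library, and in Krt4/Psca cells 0.620. Fewer epithelial cells than B cells had a Hilpda UMI at equal depth, and the part of free RNA in these ratios was not tested. For Bnip3l in fibroblasts it was 1 with cells thinned to 1000 UMIs, and for Mxi1 in epithelium it was 1.18.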

How the results depend on the processing

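Over the alternatives the list medians crossed 0 for glycolysis in neutrophils (-0.13 to 0.02) and for HIF targets in macrophages (-0.17 to 0.09), and in none of the other lists and gates. The HIF target median ranged from -0.30 to -0.16 in neutrophils, the glycolysis median from -0.22 to -0.08 in epithelium. In Krt4/Psca cells the glycolysis median ranged from -0.27 to -0.16 and the HIF target median from -0.57 to -0.02. Of 296 alternative values for 45 named ratios, 268 stayed within the counting interval, 24 moved outside it and 4 turned direction. Those that turned were Fam162a in macrophages (0.924) and Mxi1 in epithelium (1.18) with cells thinned to 1000 UMIs, Mxi1 in epithelium (1.16) with each cell at equal weight, and Pfkl in fibroblasts (1) with cells in several gates kept. Hilpda in neutrophils was 0.573 with gate thresholds halved and 0.932 with them doubled. Adm in fibroblasts gave no value when thinned, since a library then had a count of 0. No paired analysis was possible because each group has 1 library. The lowest counts, in fibroblasts, limit what can be seen there. The causes of these shifts were not tested.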

Other observations

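In the epithelial subsets, Ldhb had 37 and 115 UMIs in basal cells, a ratio of 1.92 (1.31 to 2.86), and 6 and 34 UMIs in Krt4/Psca cells. Car9 had 26 and 97 UMIs in basal cells, a ratio of 2.3 (1.48 to 3.70), and 17 and 13 UMIs in Krt4/Psca cells. Car12 had 42 and 105 UMIs in basal cells, a ratio of 1.54 (1.07 to 2.26), and 4 and 13 UMIs in Krt4/Psca cells. The difference between the subsets was not tested. With the cell holding most of its UMIs left out of each library, the basal ratios were 1.61 (1.08 to 2.47) for Ldhb, 2.63 (1.62 to 4.45) for Car9 and 1.65 (1.12 to 2.47) for Car12.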
